A study of Bos taurus with 27 samples.

Results

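Alpha-2-macroglobulin (A2M, ENSBTAG00000018137) and its receptor LRP1 (LDL receptor related protein 1, ENSBTAG00000010830) were described in colon RNA of newborn calves. They are 2 of the 24616 genes in the count table. The pair was chosen from an earlier result of these same data, the difference of A2M between calves of the 2 dam parities when colostrum was first fed at 6 h. That difference is therefore described below without a test, as is every contrast with either 6 h parity group taken alone. The question put to the remaining comparisons was how A2M and LRP1 levels lay across feeding times, dam parities and individual calves.

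Whole colon tissue came from 27 male Holstein calves killed at 51 h of age, each a separate animal with 1 library. Every calf received a meal of pooled, pasteurised colostrum through an esophageal tube, given directly after birth (TRT0), at 6 h (TRT6) or at 12 h (TRT12), and milk replacer afterwards. Each treatment held 4 calves from primiparous heifers (H) and 5 calves from multiparous cows (C), which made 6 groups named TRT0_H, TRT0_C, TRT6_H, TRT6_C, TRT12_H and TRT12_C. No group went without colostrum. Treatment came from the labels of the samples, whereas dam parity was read by animal number from the sample list that accompanies the study, because neither the labels nor the count columns give it.

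A2M is a large secreted glycoprotein that traps proteases of many classes, and it also binds growth factors and cytokines. Once a protease has been trapped, A2M changes shape and is recognised by LRP1, a widely expressed endocytic receptor that carries it into the cell for degradation. LRP1 also takes up apolipoproteins, matrix proteins and complexes of proteases with their inhibitors, and it is abundant in fibroblasts, smooth muscle cells and macrophages.

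Total gene counts ranged from 1163791 to 4202593 per calf, with a median of 2215402, and levels are given as CPM, the count of a gene scaled to a common library total. The libraries were sequenced in 3 lanes of 11, 11 and 5 calves, and 4 of the 6 groups had calves in only 2 of the lanes. Lanes 1 and 2 share a run number in their names, while lane 3 carries another. Lane 3 held 2 TRT0_C calves, 2 TRT12_H calves and 1 TRT6_C calf. Markers of epithelium, smooth muscle and fibroblasts were all high, and their sums ranged over 1715–3113 CPM for 6 epithelial genes, 6554–13665 CPM for 6 smooth muscle genes and 6993–17802 CPM for 6 fibroblast genes. Of 5 genes on the hepatocyte list 2 could be named. APOA1 was measured at 58.7 ± 29.5 CPM (SD, n = 27) and TTR, a plasma carrier made by hepatocytes, at 0.917 ± 0.828 CPM, with calves at 0. In bulk tissue, fewer cells of a type and less RNA per cell cannot be told apart.

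Both genes were detected in every calf. A2M had 759 to 2469 reads per calf and was the 61st gene by mean CPM, while LRP1 had 1559 to 5496 reads and was the 31st. Over all calves A2M measured 789 ± 206 CPM (SD, n = 27), from 418 to 1230 CPM, a 2.94-fold range. LRP1 measured 1434 ± 235 CPM, from 995 to 1803 CPM, a 1.81-fold range. The SD was 26.1% of the mean for A2M and 16.4% for LRP1, against 2.55% and 1.89% from counting error alone, so nearly all of the spread lay between calves or libraries. CPM is not corrected for transcript length, and the level of A2M is therefore not set against that of LRP1.

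**Figure D1:**
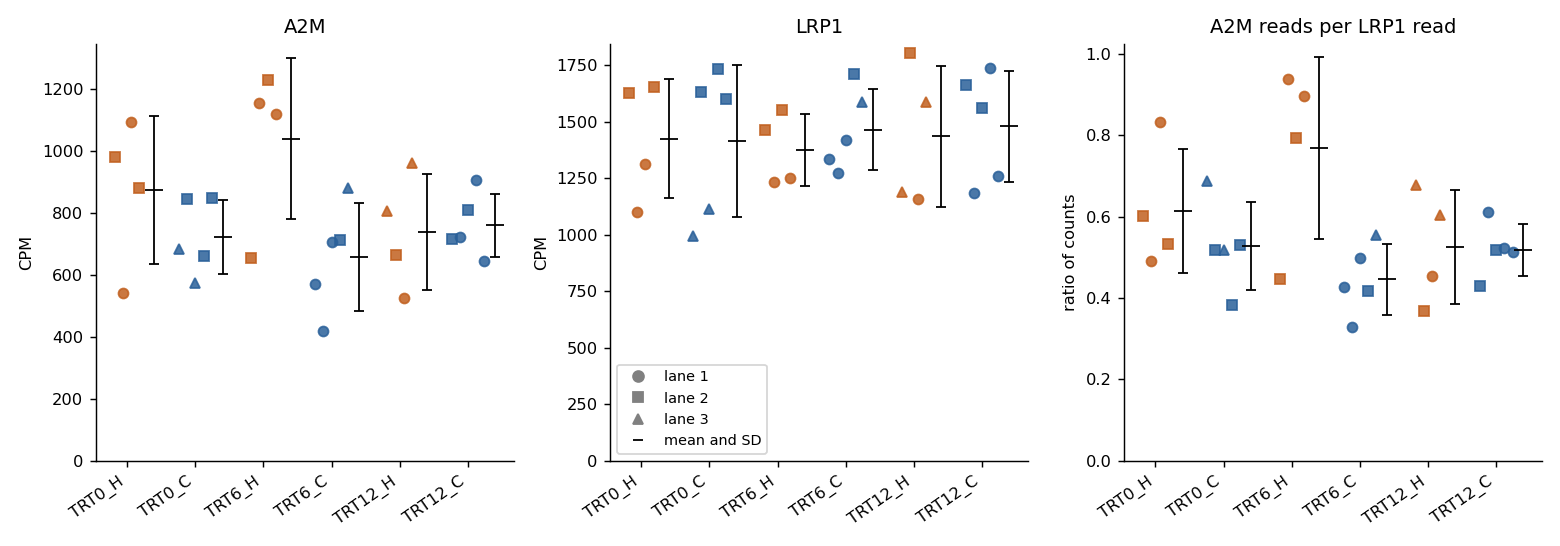
CPM of A2M (left), CPM of LRP1 (middle) and A2M reads per LRP1 read (right) in the 6 groups, 1 point per calf, with heifer-born calves in orange, cow-born calves in blue, the marker shape giving the sequencing lane, and the bar the group mean ± SD. A2M of 3 of the 4 TRT6_H calves lies above every TRT6_C calf, while the LRP1 groups overlap throughout.

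When colostrum was first fed at 6 h, A2M measured 655, 1156, 1230 and 1119 CPM in the 4 TRT6_H calves. In the 5 TRT6_C calves it measured 571, 418, 708, 714 and 882 CPM. The groups overlapped: 3 TRT6_H calves lay above every TRT6_C calf, and the calf at 655 CPM lay among them. These 3 calves held the 3 highest A2M levels of all 27, and the next calf, at 1095 CPM, was in TRT0_H. The group means were 1040 ± 261 CPM (SD, n = 4) and 659 ± 174 CPM (SD, n = 5), and the fitted log2 fold change of TRT6_C over TRT6_H was -0.73 (SE 0.19), a level 0.604 times as high. Among 13943 genes this was the 177th most negative fold change. As background for all genes, the quasi-likelihood fit of edgeR called 0% in this contrast (285 genes higher and 253 lower at an unadjusted p under 0.05), its likelihood ratio test called 1 gene and DESeq2 called 2, and nothing is read from this for A2M. The groups did not overlap at 0.911% of all genes, and A2M was not among them.

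These values are what the choice of the gene rests on, and they carry the following measured circumstances. Within lane 1, A2M measured 1119–1156 CPM in 2 TRT6_H calves and 418–708 CPM in 3 TRT6_C calves, which did not overlap. Within lane 2, the 2 TRT6_H calves measured 655 and 1230 CPM, on either side of the single TRT6_C calf at 714 CPM. Lane 3 held no TRT6_H calf. With lane as a covariate the log2 fold change was -0.80 (SE 0.19), and leaving out 1 calf at a time it ranged from -0.88 to -0.63. Of the 3 high calves, 2 had small libraries, of 1264884 and 1274767 counts, in which A2M had 1462 and 1427 reads.

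LRP1 showed no such pattern at 6 h. It measured 1463, 1233, 1553 and 1250 CPM in TRT6_H and 1337, 1275, 1417, 1710 and 1588 CPM in TRT6_C. The log2 fold change was 0.03 (SE 0.15), and the groups overlapped. The number of A2M reads per LRP1 read, which does not depend on how libraries are scaled, was 0.447, 0.938, 0.792 and 0.895 in TRT6_H and lay between 0.328 and 0.555 in TRT6_C. As with A2M alone, 3 of the 4 TRT6_H calves lay above every TRT6_C calf. The ratio still carries the lane difference of LRP1 given below, and a TRT0_H calf of lane 1 reached 0.833.

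Marker sums of other cell types overlapped between both 6 h groups. Endothelial markers, which A2M followed most closely among the marker sums, summed to 318–409 CPM in TRT6_H and 316–461 CPM in TRT6_C over 4 genes. The epithelial sum was 2119–2440 CPM against 1820–2531 CPM, and the fibroblast sum was 7736–12498 CPM against 6993–16040 CPM. The sum of APOA1 and TTR, the 2 named genes of 5 on the hepatocyte list, was 20.6–139 CPM against 32.2–85.4 CPM. Its means were 86.3 and 62.1 CPM, higher in TRT6_H. This sum was nearly all APOA1, at 58.7 CPM over all calves against 0.917 CPM for TTR. It therefore says little about TTR and is not read as a measure of liver RNA. Smooth muscle markers summed to 7277–12179 CPM against 6702–13553 CPM, the macrophage gene CSF1R measured 53.7–82.2 CPM against 37.4–113 CPM, and the lymphocyte gene PTPRC 50.2–87.0 CPM against 29.8–178 CPM. The part of these lists in the A2M difference was not tested.

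For colostrum fed directly after birth, A2M was lower on average in cow-born than in heifer-born calves, but the groups overlapped and the difference did not pass the test. It measured 979, 540, 1095 and 881 CPM in TRT0_H. In TRT0_C it measured 683, 845, 575, 662 and 847 CPM. The highest 3 TRT0_H calves lay above all TRT0_C calves, and the calf at 540 CPM lay below them all. The difference of means was -151 CPM (p = 0.254, two-sided exact permutation test; the smallest p this design allows is 0.00794). The log2 fold change was -0.37 (SE 0.19, 95% interval -0.76 to 0.03), with a Benjamini-Hochberg adjusted p of 0.9999 over all genes by the quasi-likelihood test of edgeR. With lane as a covariate it was -0.50 (SE 0.19, adjusted p = 0.9996 by the same test). Leaving out 1 calf at a time it ranged from -0.52 to -0.24. Within lane 2, the one lane shared by both groups, A2M measured 881–979 CPM in 2 TRT0_H calves and 662–847 CPM in 3 TRT0_C calves.

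LRP1 was alike in level in both TRT0 groups. It measured 1627, 1102, 1315 and 1652 CPM in TRT0_H and 995, 1632, 1112, 1733 and 1599 CPM in TRT0_C. The cow-born calves thus held both the lowest LRP1 level of all and 1 of the highest. The difference of means was -9.72 CPM (p = 0.929, exact permutation test), and the log2 fold change of -0.12 had an SE of 0.15. Neither gene was called, as was true of all 13943 genes (0%), and 1.21% of genes had groups that did not overlap.

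At 12 h, neither gene differed in mean by more than its spread between calves. A2M measured 806, 666, 525 and 960 CPM in TRT12_H and 716, 723, 808, 906 and 645 CPM in TRT12_C. The difference of 20.8 CPM (p = 0.841, exact permutation test) had a log2 fold change of 0.06 (SE 0.19, 95% interval -0.33 to 0.46). LRP1 measured 1191, 1803, 1157 and 1587 CPM in TRT12_H and 1663, 1185, 1559, 1736 and 1258 CPM in TRT12_C. Its difference of 45.6 CPM (p = 0.794, exact permutation test) was also within the spread. No gene was called (0%), and 0.724% of genes had groups that did not overlap, which neither A2M nor LRP1 had.

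Over TRT0 and TRT12 together, the C over H log2 fold change of A2M was -0.15 (SE 0.14, 95% interval -0.43 to 0.13). That of LRP1 was -0.03 (SE 0.11), and 0% of genes were called. These estimates leave out the TRT6 calves that chose the gene, but those calves still enter the spread behind each SE. The A2M value rested much on single calves: it was -0.06 without calf 4168, -0.09 without calf 4138 and -0.23 without calf 4135. The parity difference of A2M at 12 h less that at 0 h was 0.43 (SE 0.27, 95% interval -0.13 to 0.98), and for LRP1 it was 0.18 (SE 0.21). With lane as a covariate the A2M value was 0.76 (SE 0.30, adjusted p = 0.903), and its difference at 12 h was 0.25 (SE 0.20). In this interaction 1 gene of 13943 was called (0.00717%), and it was neither of them.

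Averaged over both parities, feeding time left both genes close to level. For A2M, the contrasts with TRT6 contain the calves that chose the gene. Their TRT6 value joins the groups with the highest and the lowest mean A2M (1040 CPM in TRT6_H and 659 CPM in TRT6_C). A level value there thus cannot show that feeding time left A2M level within each parity. In the fit with treatment and parity as terms, A2M had log2 fold changes of 0.08 (SE 0.15) for TRT6 over TRT0, -0.02 (SE 0.15) for TRT12 over TRT0 and -0.10 (SE 0.15) for TRT12 over TRT6. LRP1 had 0.04, 0.07 and 0.02, each with an SE of 0.10. The 95% intervals of A2M reached from -0.41 to 0.38 over these contrasts, and those of LRP1 from -0.19 to 0.28. No gene was called in any of the 3 contrasts (0%).

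Within a parity, TRT12_H less TRT0_H was -135 CPM for A2M (p = 0.371, exact permutation test) and 10.4 CPM for LRP1 (p = 0.943, exact permutation test). TRT12_C less TRT0_C was 37.3 CPM for A2M (p = 0.595, exact permutation test) and 65.7 CPM for LRP1 (p = 0.651, exact permutation test). After adjustment over the 8 exact tests each p was 0.943. In edgeR's fit the log2 fold changes were -0.27 (SE 0.20) and -0.03 (SE 0.16) in heifer-born calves. In cow-born calves they were 0.15 for both, with SE 0.18 and 0.14 and adjusted p of 0.818 and 0.755. With lane as a covariate the A2M values were -0.46 (SE 0.21) in heifer-born and 0.29 (SE 0.19) in cow-born calves. The groups overlapped for both genes, where 1.99% of all genes in heifer-born and 2.19% in cow-born calves did not overlap, and 0% were called in either contrast.

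**Figure D2:**
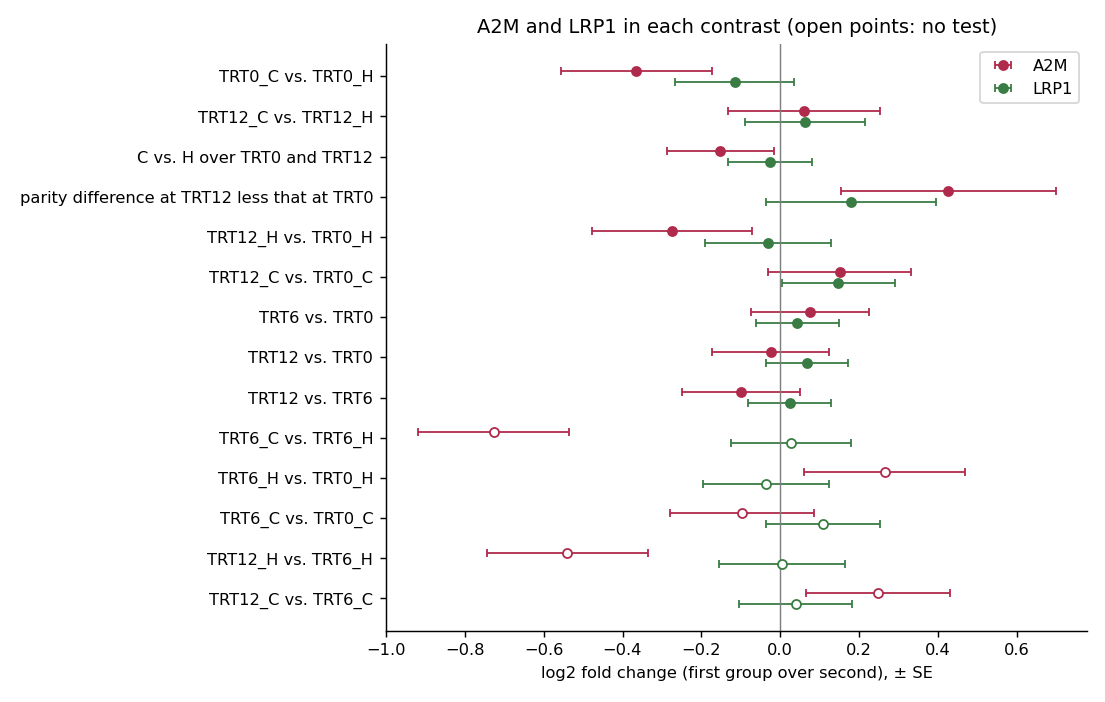
Log2 fold changes of A2M (red) and LRP1 (green) from edgeR, with bars of 1 SE, in the 9 tested contrasts (filled) and in the 5 contrasts with a TRT6 parity group, which were not tested (open). A2M lies at -0.73 for TRT6_C over TRT6_H and at -0.54 for TRT12_H over TRT6_H, and LRP1 stays between -0.12 and 0.18.

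The other contrasts that contain a 6 h parity group show where its calves lay and carry no test. A2M was 0.26 (SE 0.20) higher on the log2 scale in TRT6_H than in TRT0_H, and TRT12_H over TRT6_H was -0.54 (SE 0.20). TRT6_C lay close to TRT0_C, at -0.10 (SE 0.18), and TRT12_C lay above TRT6_C by 0.25 (SE 0.18). These contrasts share the same TRT6 calves. For LRP1 the values ran from -0.04 to 0.11.

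In order of mean CPM, A2M ran from TRT6_H (1040 ± 261) through TRT0_H (874 ± 239), TRT12_C (760 ± 100), TRT12_H (739 ± 187) and TRT0_C (722 ± 120) to TRT6_C (659 ± 174), all SD over 4 or 5 calves. Each step between neighbours was smaller than the SD of both groups, except that from TRT0_H to TRT12_C, which exceeded the SD of TRT12_C alone. LRP1 ran from TRT12_C (1480 ± 246) through TRT6_C (1465 ± 180), TRT12_H (1434 ± 314), TRT0_H (1424 ± 264) and TRT0_C (1414 ± 336) to TRT6_H (1375 ± 158). All of its steps, and the whole distance from first to last, were smaller than the SD of any group. On this scale the group highest in A2M was thus the lowest in mean LRP1, at differences within the spread for LRP1. After TMM scaling for library composition it was not, with LRP1 at 1418 CPM in TRT6_H and lowest in TRT0_C, at 1341 CPM.

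With edgeR's quasi-likelihood fit, 8 of the 9 tested contrasts had 0 called genes and the interaction had 1, while 243 to 1376 genes had an unadjusted p under 0.05. DESeq2 called 0 to 51 genes and the edgeR likelihood ratio test 0 to 2. A2M and LRP1 were called by none of these, and over all alternative fits their lowest adjusted p was 0.508 and 0.432.

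LRP1 levels went with the sequencing lane more than with any group. They measured 1636 ± 93.8 CPM (SD, n = 11) in lane 2, with 1463 to 1803 CPM, and 1297 ± 169 CPM (SD, n = 11) in lane 1. Each of the 11 lane 2 calves lay above 10 of the 11 lane 1 calves, which reached 1417 CPM, and the remaining lane 1 calf was at 1736 CPM. In the 5 calves of lane 3, LRP1 ranged from 995 to 1588 CPM. After TMM scaling, which corrects for differences in library composition, the means were 1568 ± 92.4, 1334 ± 96.2 and 1321 ± 282 CPM in lanes 2, 1 and 3. A2M showed no such step, with lane means of 764 CPM in lane 1, 818 CPM in lane 2 and 781 CPM in lane 3. Whether lane or the tissue in it set the LRP1 level was not tested.

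The relation of the ligand with its receptor from calf to calf was weak over all calves and varied with the subset taken. Over 27 calves Pearson's r of A2M with LRP1 was 0.241 (p = 0.227, 100000 permutations; 0.295 adjusted over 13 relations) and Spearman's rho was 0.277 (p = 0.162; adjusted 0.234). Without the 2 calves farthest from the median of LRP1, r was 0.152. Within lane 1 r was 0.237 and within lane 2 it was -0.358, each over 11 calves, and lane 3 was too small. Within treatments of 9 calves TRT0 gave 0.468, TRT12 gave 0.432 and TRT6 gave -0.0212, a difference that was not tested. With each gene centred within the 6 groups, r was 0.390 (permutation p = 0.0442) and rho 0.383 (p = 0.0494), unadjusted. The pooled relation did not pass the test, and its sign differed between lanes.

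**Figure D3:**
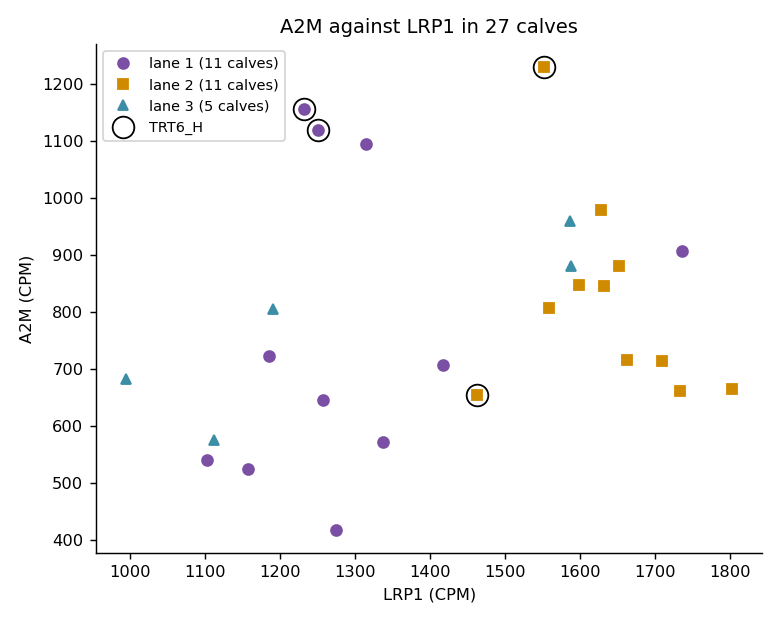
A2M against LRP1 in CPM, 1 point per calf, with colour and shape giving the lane and rings marking the 4 TRT6_H calves. The points form no line (Pearson's r = 0.241 over 27 calves), and lane 2 calves sit to the right at 1463–1803 CPM of LRP1.

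LRP1 went with markers of vessels and fibroblasts over all calves. Its r was 0.634 with the sum of 4 endothelial markers (PECAM1, VWF, KDR and EMCN; permutation p = 0.0005, adjusted 0.00325; rho 0.616) and 0.584 with the sum of 6 fibroblast markers (p = 0.00135, adjusted 0.00585; rho 0.567). With smooth muscle markers it was 0.447 (adjusted p = 0.0657; rho 0.493) and with epithelial markers 0.272 (adjusted p = 0.244). Without the 2 calves farthest from the median of the marker sum, r was 0.563 for endothelial and 0.537 for fibroblast markers. Within lanes the endothelial relation differed: r was 0.849 in lane 1 and -0.239 in lane 2, so it did not hold within lane 2. The fibroblast values were 0.699 (unadjusted permutation p = 0.074) and 0.299 (unadjusted permutation p = 0.372). The permutations over all calves did not keep lanes apart, although LRP1 differed between lanes. Both sides of each relation are in CPM and share the library total, and the part of that total was not tested.

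Among the 13 relations computed, the one of LRP1 with the largest r was negative, with the share of a library's counts taken by 10 genes. These 10 had the highest counts summed over all calves and were the same for every library. The relation had an r of -0.768 (permutation p = 3e-05, adjusted 0.00039) and a rho of -0.776. It held in both large lanes, at -0.854 and -0.677. CPM is itself a share of the total, and how far that sets this relation was not tested. A2M had an r of -0.342 with the same share (adjusted p = 0.150).

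A2M went with no marker sum past the adjusted threshold by Pearson's r. The endothelial sum came nearest, with r = 0.380 (permutation p = 0.0508, adjusted 0.132), and its rank correlation of 0.458 had an adjusted p of 0.0445. Within lanes 1 and 2, r was 0.338 and 0.413. The values for epithelial, fibroblast and smooth muscle markers were 0.287, 0.119 and -0.150, and that for total counts was -0.364 (adjusted p = 0.133).

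Genes whose levels were most like each member were ranked by Pearson's r on log2 TMM-scaled CPM over 27 calves, among the 3715 genes with a symbol. All of these values are descriptions, since genes share the libraries, their depth and their tissue makeup. LRP1 stood 3279th of 13942 genes for A2M, with r = 0.15 on this scale.

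For A2M the likeness was modest. The 3 highest named genes were TGM3 (r = 0.65), a transglutaminase of differentiating epithelium, MXD1 (0.63), a transcription factor that opposes MYC, and GRAMD3 (0.60). They were followed by CLCN5 (0.59), an endosomal chloride transporter, PCDH1 (0.58), a cell adhesion protocadherin, STYK1 (0.58), LOC508916 (0.57), CHD4 (0.57), a chromatin remodeller, COPRS (0.56) and GNPNAT1 (0.56), an enzyme of amino sugar synthesis. At the opposite end stood ACSBG1 (-0.73), an acyl-CoA synthetase, DNAL1 (-0.60), a dynein light chain, APOC3 (-0.60), an apolipoprotein, MTURN (-0.57) and ERI1 (-0.57). Only 3 of all genes reached an absolute r of 0.7.

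The genes like A2M kept their sign in the large lanes with 1 exception. TGM3 had r of 0.72 in lane 1 and 0.54 in lane 2, and ACSBG1 had -0.82 and -0.73. COPRS, at 2.69 ± 1.28 CPM a low gene, had 0.81 in lane 1 and -0.07 in lane 2. ACSBG1, at 1.14 ± 0.802 CPM, was also near the detection limit. TGM3 measured 202 ± 137 CPM, from 63.9 to 534 CPM. All 10 genes most like A2M had a negative log2 fold change in TRT6_C over TRT6_H, from -1.54 for LOC508916 and -1.42 for TGM3 to -0.04 for STYK1, and the 5 most unlike had a positive one. The same 9 calves enter the correlation, so that agreement follows in part from the choice of genes.

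LRP1 had far closer companions, and many of them: 149 genes reached an absolute r of 0.7. BCL9L, a coactivator of beta-catenin, stood first (r = 0.90), then HSPG2 (0.84), which encodes the basement membrane proteoglycan perlecan, AP2A2 (0.84), an adaptor subunit of clathrin-coated vesicles, RXRA (0.83), a nuclear receptor, and PLXNB2 (0.82), a semaphorin receptor. DYNC1H1 (0.82), the heavy chain of cytoplasmic dynein, COL4A2 (0.81), a collagen of basement membranes, HSPB1 (0.79), a small heat shock protein, AGRN (0.79), a further basement membrane proteoglycan, and LTBP4 (0.78), which binds latent TGF-beta, completed the 10 highest. The 4 lowest were RIF1 (-0.78), SLF2 (-0.76), SMC4 (-0.74) and AHCTF1 (-0.74), genes of DNA replication and repair, chromosome structure and nuclear pores. These negative values depended on the scaling: on log2 CPM without TMM factors they were -0.21, -0.30, -0.35 and -0.37, while BCL9L and HSPG2 had 0.94 and 0.91.

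These companions shared the lane pattern of LRP1 to different degrees. Within lanes 1 and 2, BCL9L had r of 0.65 and 0.66, HSPG2 0.72 and 0.67, DYNC1H1 0.79 and 0.79, and COL4A2 0.75 and 0.82. PLXNB2 had 0.68 and -0.03, and AGRN 0.49 and 0.00, so their likeness to LRP1 was not seen within lane 2. Of the genes that opposed LRP1, RIF1 had -0.45 and -0.79, whereas SMC4 had 0.01 and -0.60. Centred within lanes, 3 of the 10 highest and 2 of the 5 lowest named genes were still among those ranks.

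**Figure D4:**
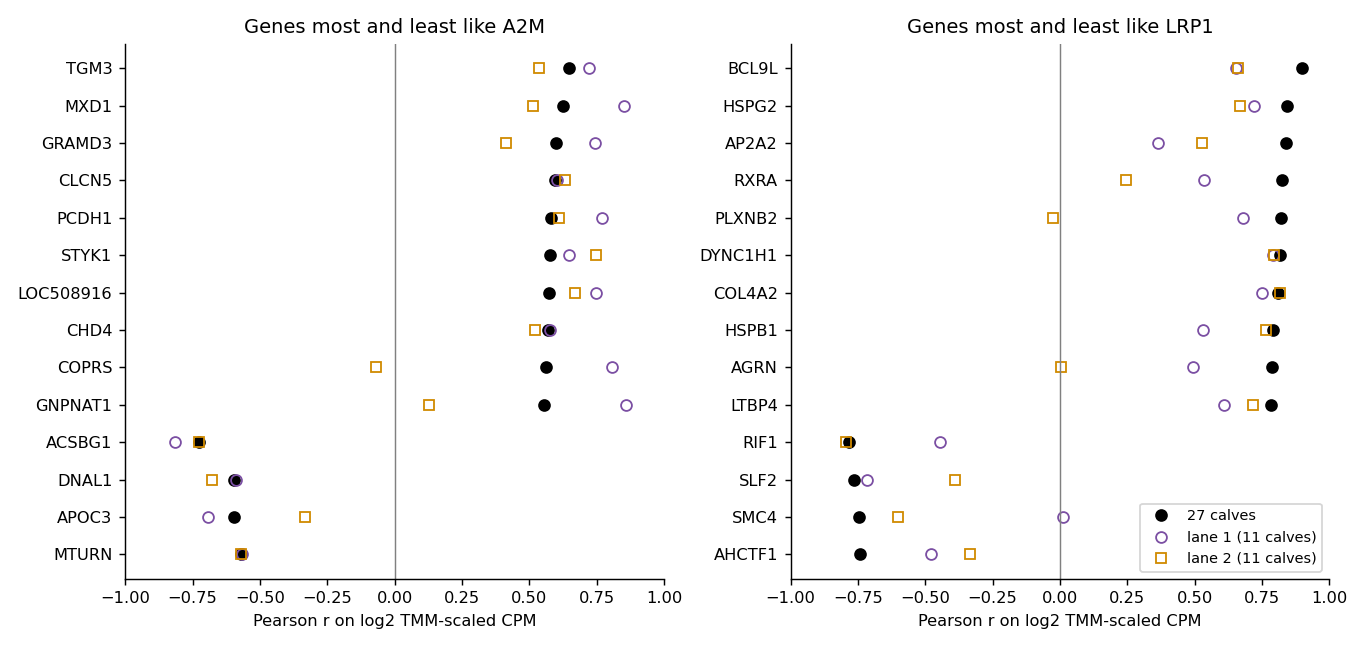
Pearson's r of each member with its 10 most and 4 least similar named genes, over all 27 calves (black) and within lane 1 (purple) and lane 2 (yellow) of 11 calves each. LRP1 companions reach 0.90 over all calves against 0.65 for A2M, and PLXNB2 and AGRN fall near 0 within lane 2.

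Genes that work with A2M and LRP1 were taken from lists of 98 symbols, of which 33 besides the pair could be named and tested. None was called in any contrast, against 0% to 0.00717% of all genes. The lists hold relatives of A2M and LRP1, LRP1 ligands, maturation factors and adaptors of LRP1, proteases and their inhibitors, and growth factors with the PDGF receptors.

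Of the 11 tested LRP1 ligands other than A2M, all had a negative C over H log2 fold change at TRT0, with a median of -0.21 beside a median of 0.00 over all genes. From group means of unscaled CPM it was 10 of the 11. Ligands include the matrix proteins FN1 (-0.35, SE 0.19) and THBS1 (-0.36, SE 0.22), the lipid carrier APOE (-0.50, SE 0.34) and the lipase LPL (-0.52, SE 0.29). At TRT6, 9 of the 11 were negative with a median of -0.21, and at TRT12 only 2 were, with a median of 0.09. A2M itself had -0.37, -0.73 and 0.06 in the same 3 contrasts. No ligand passed the test in the TRT0 or TRT12 contrast.

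At TRT6 the lowest ligand was PLAT, tissue plasminogen activator, at -0.72 (SE 0.28), followed by the chaperone CALR, which also acts at the cell surface, at -0.43 (SE 0.22), and the C1 inhibitor SERPING1 at -0.40 (SE 0.25). C3, the complement component and the only other tested member of the A2M family, had -0.72 (SE 0.34) at TRT6, 0.36 (SE 0.35) at TRT0 and -0.14 (SE 0.34) at TRT12. Over all calves r with A2M was 0.05 for C3 and 0.43 for PLAT. Between TRT12_C and TRT0_C, 10 of the 11 ligands had a positive fold change with a median of 0.21. Here CALR had 0.60, PLAT 0.60 and HSP90AA1, a heat shock protein that LRP1 binds outside the cell, 0.51, and none passed the test after adjustment.

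Among 6 tested receptors related to LRP1, the direction differed between contrasts. At TRT0, 3 of 6 had a positive and 3 a negative parity difference, with a median of -0.04, and at TRT12 the split was the same, with a median of -0.02. At TRT6, 2 were positive and 4 negative, with a median of -0.14. Over TRT0 and TRT12 together 5 of the 6 were negative (median -0.02), as were 5 in TRT12_H over TRT0_H (median -0.08). LRP11 stood lowest at TRT0, at -1.09 (SE 0.37), from a mean of 14.8 CPM. SORL1, a sorting receptor, had r of 0.45 with A2M, the highest of the receptors, and LRP10 had 0.59 with LRP1. Among the 5 maturation factors and adaptors, FURIN, the convertase that cleaves the LRP1 precursor, had r of 0.61 with LRP1. HSP90B1, a chaperone of the endoplasmic reticulum, had -0.50 (SE 0.25) at TRT6 and 0.30 (SE 0.26) at TRT12.

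Proteases and the other inhibitors were also split. Of 5 tested proteases, 4 had a negative C over H fold change at TRT0 and 2 at TRT12, and MMP2, a gelatinase of stromal cells, had -0.22, -0.24 and 0.17 at TRT0, TRT6 and TRT12. Of the 4 inhibitors, 3 were negative at TRT0 and at TRT6, among them TIMP3, an inhibitor of metalloproteinases, at -0.22 and -0.03. PDGFRB, a receptor that acts with LRP1 in mural cells, stayed within -0.06 to 0.02 in all 3 parity contrasts and had r of 0.44 with LRP1. Over the 33 genes the median r was 0.20 with A2M and 0.21 with LRP1.

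**Figure D5:**
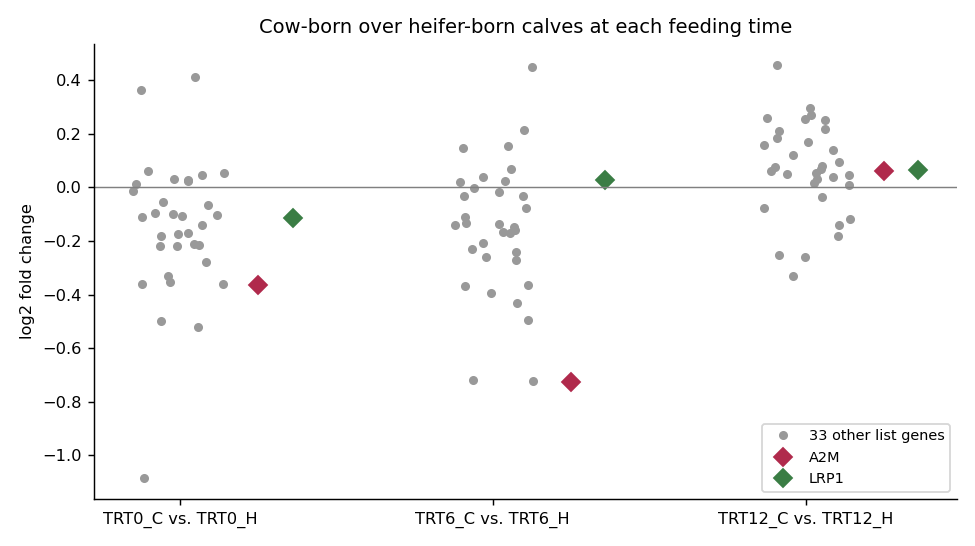
Log2 fold changes of cow-born over heifer-born calves at each feeding time, for A2M (red diamond), LRP1 (green diamond) and the 33 other tested list genes (grey, spread sideways for legibility only). At TRT6 A2M lies at -0.73 beside C3 and PLAT at -0.72, while LRP1 lies at 0.03. At TRT0 A2M lies at -0.37, C3 at 0.36 and PLAT at -0.01.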

How the data were processed

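The authors deposited raw integer read counts for each Ensembl gene and calf, without normalization. The totals of these counts lie far below the number of reads per sample that the study reports, and the reason was not tested. Per the labels and the study's methods, total RNA from colon was made into TruSeq libraries, reads were aligned to UMD3.1 with TopHat2 2.1.1, sorted with SAMtools 1.4 and counted with HTSeq, and reads that matched several genes were dropped. Reads shared with near-identical or overlapping genes are therefore missing, and the strand setting is not given in the sources used here.

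CPM was computed over the gene counts of each calf. The 13943 genes that reached 1 CPM in 5 or more of the 9 calves of every treatment were fitted with edgeR 4.0.16 in R 4.3.3 (TMM factors, quasi-likelihood test, all 27 calves). Contrasts within treatment or parity came from a fit of 6 group means, and overall contrasts from additive terms. Genes were called at a Benjamini-Hochberg adjusted p of 0.10 and a fold change of 1.2. A log2 CPM with a prior count of 2 served the rankings by r. Single-value tests were exact permutation tests, and correlations used 100000 permutations (scipy 1.17.1). The edgeR fit of 6 group means and the ranking by r were tested on simulated data. Alternatives were DESeq2 1.42.0, the likelihood ratio test, library totals, no filter, lane as a covariate and leaving out each calf, and, added after seeing the data, TMM-scaled CPM in the exact tests and a treatment fit without parity.

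Symbols came from the study's own annotation, which names 4046 of the genes. The genes named were the 10 highest and 5 lowest named genes by r with each member, and examples from the gene lists, and 1 of them is not reported here. Members and lists were chosen with earlier results of these data known. No sequences are shown, and genome coordinates were not used here. No 2 of the 351 library pairs were identical.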

Additional observations from a re-analysis of the deposited data

How the results depend on the processing

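A2M and LRP1 stayed uncalled in every fit of the tested contrasts. Of the tested log2 fold changes under other tools, filters and scalings, 93 kept their sign and 3, all of LRP1, changed it: library totals gave 0.0190 for C over H in TRT0 and TRT12 and 0.0111 for TRT12_H over TRT0_H, and lane as a covariate gave 0.0205 for the latter. Of the 50 values in the contrasts with a single 6 h parity group, 1 changed sign, LRP1 in TRT12_C over TRT6_C with lane as a covariate (-0.0110). Library totals moved the median of all genes by up to -0.12, in the interaction contrast. Leaving out 1 calf at a time, 469 tested values kept and 17 changed sign. In the fit of 6 group means, leaving out a calf of another group hardly moves a contrast. For example, A2M in TRT0_C over TRT0_H stayed at -0.365 without TRT12 replicate 1. Many of the kept signs, here and in the 6 h contrasts below, were thus fixed in advance and do not measure stability. The A2M ranges that crossed 0 were -0.0434 to 0.236 (TRT12_C over TRT12_H) and -0.0835 to 0.0427 (TRT12 over TRT0). Those of LRP1 were -0.0301 to 0.148 (TRT12_C over TRT12_H), -0.0729 to 0.0226 (C over H), -0.117 to 0.0661 (TRT12_H over TRT0_H), -0.00793 to 0.0909 (TRT6 over TRT0) and -0.00293 to 0.0655 (TRT12 over TRT6). In the tested contrasts the calves whose omission changed a sign were 4138, 4128 and 4139 for A2M, and 4108, 4124, 4164, 4144, 4117, 4128, 4139 and 4168 for LRP1. In the contrasts with a single 6 h parity group no A2M value changed sign and 10 of LRP1 did (calves 4122, 4128, 4144, 4146, 4151, 4154, 4164 and 4168), with ranges of -0.0112 to 0.0888 (TRT6_C over TRT6_H), -0.121 to 0.0621 (TRT6_H over TRT0_H), -0.0801 to 0.0976 (TRT12_H over TRT6_H) and -0.0131 to 0.0818 (TRT12_C over TRT6_C). On TMM-scaled CPM, LRP1 in TRT12_H less TRT0_H was -31.2 CPM.

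Counts of called genes moved as follows in the tested contrasts. DESeq2 called 51 genes for TRT12 over TRT0, 4 for TRT12_C over TRT0_C, and 1 each for TRT0_C over TRT0_H and TRT12_H over TRT0_H. The likelihood ratio test called 1 for TRT0_C over TRT0_H and 2 for TRT12_C over TRT0_C. Without a filter 1 gene was called for TRT12_C over TRT12_H, TRT12_C over TRT0_C and TRT12 over TRT6. With lane as a covariate 4 were called for TRT12_C over TRT0_C, 1 each for TRT6 and TRT12 over TRT0, and 0 in the interaction. In the contrasts with a single 6 h parity group, all at 0 in the quasi-likelihood fit, DESeq2, the likelihood ratio test and the fit without a filter called at most 2 genes each. The cause was not tested.

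Centred within the 6 groups, r of A2M with LRP1 was 0.390 (permutation p = 0.0442). The other scalings gave 0.0616 to 0.311, and leaving out 1 calf gave 0.185 to 0.328. Unscaled CPM shared 6 of the 10 highest genes for A2M, 6 of 10 for LRP1 and 0 of the 5 lowest for LRP1. Centring within lanes shared 3 of the 5 lowest for A2M, and 3 of 10 and 2 of 5 for LRP1. No paired analysis was possible because the replicate numbers of calves in different groups name different animals.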
